A study of Homo sapiens with 4 samples.

Results

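Nascent transcription of 9 cytokine genes was followed in Karpas 299, an established human cell line of anaplastic large cell lymphoma, which is a malignancy of T cells marked by the receptor CD30. The genes were IL22, IL26, IL21, IL17F, IL10, IL9, IFNG, IL8 and IL32, taken as a list of names, and all 9 had an entry among 22798 genes in the files. The assay was Bru-seq: cells took up bromouridine for the last 30 min of a 3 h treatment, and labelled RNA was captured with an antibody and sequenced, so that reads came from exons and introns of RNA made in that window. In experiment 1, cells were given either DMSO, the solvent, or SM-164, which is a bivalent Smac mimetic, an antagonist of inhibitor of apoptosis (IAP) proteins (not given in the sources used here: its dose). In experiment 2, the same line was exposed to Chinese hamster ovary (CHO) cells as the control, or to CD30L+ CHO cells, which present the CD30 ligand, and was taken off them by pipetting. The labels name no altered gene in the lymphoma cells, and the share of hamster cells in the collected material was not measured here.

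Each of the 4 conditions has 1 library, so the differences have no replicate check, and p-values were not computed. Library totals ranged from 26217590 reads with SM-164 to 45885631 on CHO cells. Levels are the authors' deposited RPKM, which scales reads to the gene's length and the library's total. Folds are ratios of estimated reads per library total, with an exact 95% interval for counting error alone: reads amplified by PCR and carrying no molecular identifier are not independent molecules. For counts across genes, the log2 ratio of RPKM + 0.25 was used, and a gene counted as tested with 300 or more counted bases and a mean RPKM, over both libraries compared, of 0.5 or more (the expression minimum). CD30 (TNFRSF8) was at an RPKM of 4.97 to 12.3 and IL2RA, an activation marker of T cells, at 14.7 to 28.9, while the T cell markers CD2 and CD3E had fewer than 3 reads in each library. Of the other T cell and lymphoma markers, CD4 was at 0.464 to 1.42, PRF1 at 1.89 to 7.33, GZMB at 1.93 to 5.81, CD3D at 0.323 to 1.35, CD3G at 0.0819 to 0.150 and ALK at 0.0966 to 0.137. Summed over 5 genes, stromal markers reached an RPKM of 0.00561 to 0.133 and epithelial markers 0.299 to 0.508. Over 4 B cell, 5 myeloid and 4 NK cell markers the sums were 0.292 to 0.394, 1.37 to 2.21 and 1.58 to 3.47. The highest single genes of these lists were PAX5 (0.292 to 0.394), CSF1R (0.653 to 0.752) and KLRC1 (0.868 to 2.77). In every library 2 of the 4 NK cell markers were at an RPKM of 0.5 or more.

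T helper cells are grouped by the cytokines they release. IFNG, encoding interferon gamma, marks the TH1 type, IL9 the TH9 type, and IL17F and IL22 the TH17 and TH22 types, while IL21 comes largely from follicular helper and TH17 cells. IL-10 restrains inflammation, and IL-22 and IL-26 belong to the same protein family as IL-10 and act mainly on epithelial cells. IL8 (CXCL8) is a chemokine that attracts neutrophils and a classical target of the transcription factors NF-kB and AP-1, and IL32 encodes a proinflammatory cytokine of lymphoid cells. CD30 signals through TRAF adaptors to NF-kB, and loss of c-IAP proteins lets the non-canonical NF-kB pathway start.

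Promoter sequences are shown for 4 members whose levels on CD30L+ CHO and CHO cells differed in size or direction: IL8 and IL21, with the largest ratios, IL32, with a small one, and IL10, which was lower. They are RefSeq reference windows (build GRCh38.p14) from 250 bases before to 50 bases after the annotated start, written 5′ to 3′ along the gene's strand. Of the 9 members, 8 had such a window and IL22 had none. Capitals mark matches on either strand to GGANTTTCC, a form of the NF-kB motif, TGANTCA (AP-1) or TTCNNNGAA (STAT).
IL8 (CXCL8), chr4:73740319-73740618, plus strand: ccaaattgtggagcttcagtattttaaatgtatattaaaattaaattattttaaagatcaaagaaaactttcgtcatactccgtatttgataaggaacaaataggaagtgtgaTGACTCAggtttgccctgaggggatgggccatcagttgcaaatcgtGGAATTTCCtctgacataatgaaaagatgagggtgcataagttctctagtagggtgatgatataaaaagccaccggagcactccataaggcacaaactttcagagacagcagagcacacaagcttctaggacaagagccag
IL32, chr16:3065153-3065452, plus strand: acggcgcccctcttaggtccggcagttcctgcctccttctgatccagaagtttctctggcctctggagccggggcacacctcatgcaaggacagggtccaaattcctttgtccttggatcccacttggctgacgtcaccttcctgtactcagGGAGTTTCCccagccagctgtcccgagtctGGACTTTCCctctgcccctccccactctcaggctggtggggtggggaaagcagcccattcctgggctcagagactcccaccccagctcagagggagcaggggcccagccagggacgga
IL21, chr4:122621017-122621316, minus strand: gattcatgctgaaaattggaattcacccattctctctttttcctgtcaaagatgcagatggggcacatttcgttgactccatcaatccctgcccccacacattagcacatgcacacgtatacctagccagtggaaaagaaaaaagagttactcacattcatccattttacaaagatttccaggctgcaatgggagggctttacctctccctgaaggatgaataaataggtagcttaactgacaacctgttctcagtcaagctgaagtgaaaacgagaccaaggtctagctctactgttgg
IL10, chr1:206772445-206772744, minus strand: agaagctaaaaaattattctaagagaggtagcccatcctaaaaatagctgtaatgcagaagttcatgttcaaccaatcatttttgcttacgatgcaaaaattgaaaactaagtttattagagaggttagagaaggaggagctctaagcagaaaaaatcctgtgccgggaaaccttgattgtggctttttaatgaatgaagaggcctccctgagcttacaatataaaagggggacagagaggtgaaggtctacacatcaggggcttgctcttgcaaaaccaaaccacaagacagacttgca
The IL8 window held the NF-kB letters GGAATTTCC, whose first base lay 91 bases before the start, and an AP-1 match, TGACTCA, 137 bases before it. The IL32 window held NF-kB matches 98 and 68 bases before its start and no AP-1 match, and a second annotated IL32 window held neither. No other window of a member held the NF-kB letters. Across all 35116 promoter windows of this length, 1.64% held the NF-kB letters, 7.71% the AP-1 letters and 7.66% the STAT letters. The shown windows of IL21 and IL10 held none of these 3 patterns, which says only that the letters are not in these bases. IL9 and a further annotated IL10 window held an AP-1 match, and IFNG and IL17F a STAT match. The short NFAT core GGAAA, which overlaps the NF-kB letters, occurred in every member's window and in 61.2% of all windows.

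IL22 was the most strongly transcribed member in every library. Its RPKM was 20.4 with DMSO (3324 reads), 27.6 with SM-164 (3802 reads), 20.8 on CHO cells (5012 reads) and 51.1 on CD30L+ CHO cells (12241 reads). The CD30L+ CHO library stood above the other 3, which lay within 1.35-fold of each other. Among 21187 genes of at least 300 counted bases, IL22 ranked 149 with DMSO, 70 with SM-164, 58 on CHO cells and 18 on CD30L+ CHO cells. With CD30L it was 2.46-fold higher (95% interval 2.38 to 2.54), and 38 of 7661 tested genes had a higher log2 ratio. With SM-164 it was 1.35-fold higher (1.29 to 1.42), and 124 of 7881 tested genes had a higher ratio. In such bulk samples, more producing cells and more RNA per cell cannot be told apart.

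IL26 lies downstream of IL22 on the same strand of chromosome 12. In hg19, IL22 runs from 68642025 to 68647281, IL26 from 68595129 to 68619571 and IFNG from 68548550 to 68553521, all on the minus strand. IL26 stood at an RPKM of 10.1 with DMSO (7681 reads), 10.9 with SM-164 (6982), 9.0 on CHO cells (10098) and 11.2 on CD30L+ CHO cells (12443). These 4 values lay close together: IL26 was 1.24-fold higher with CD30L (1.21 to 1.27) and 1.08-fold higher with SM-164 (1.04 to 1.11). The end of IL22 and the start of IL26 are 22.5 kb apart, yet their CD30L ratios were 2.46 and 1.24. MDM1, the gene 41.1 kb upstream of IL22, had an RPKM of 0.525 with DMSO, 0.539 with SM-164, and 0.448 and 0.508 without and with CD30L.

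**Figure D1:**
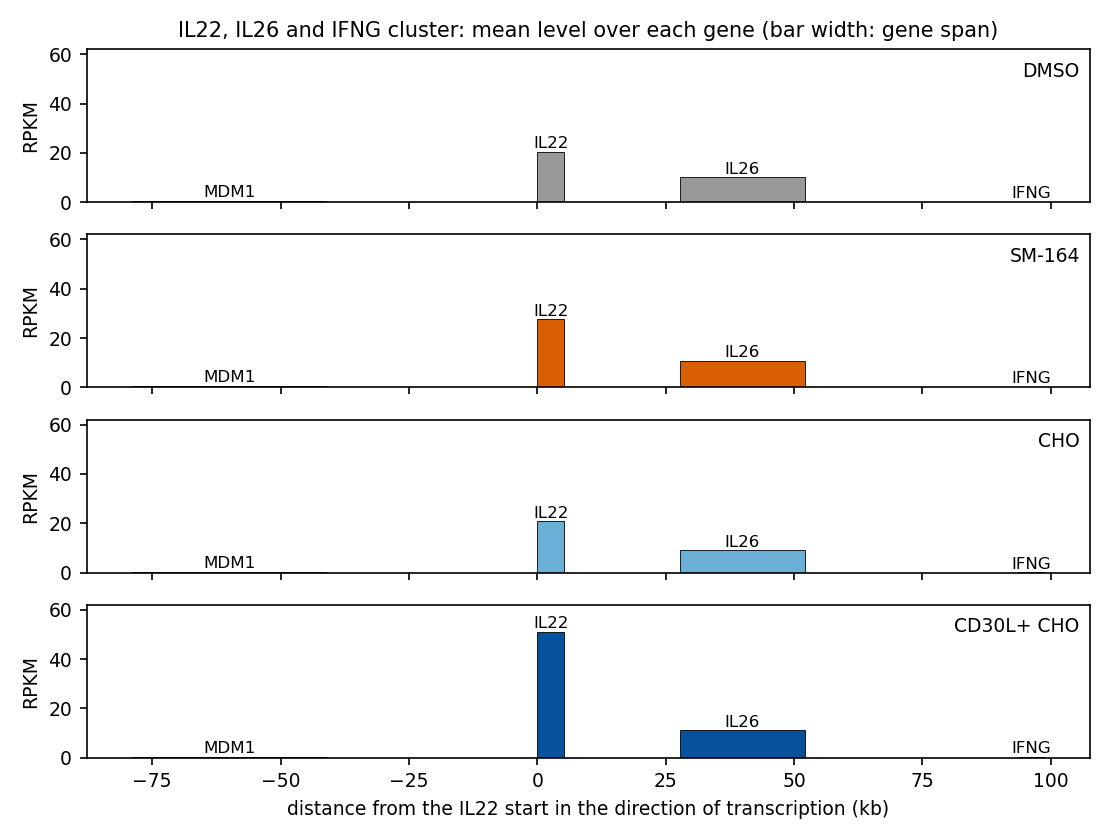
Mean RPKM over MDM1, IL22, IL26 and IFNG (bar height; bar width is the gene's span) against distance from the IL22 start in kb, 1 panel per library. IL22 stands at 20.8 on CHO cells and at 51.1 on CD30L+ CHO cells while IL26 lies between 9.0 and 11.2, and MDM1 and IFNG lie too low to show at this scale.

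IFNG, the third gene of this cluster, was transcribed at a far lower level. It had 6 reads with DMSO (RPKM 0.0389), 12 with SM-164 (0.0921), 27 on CHO cells (0.118) and 66 on CD30L+ CHO cells (0.292). The CD30L+ CHO library was again the highest, with a ratio to CHO of 2.46 (1.55 to 4.01), the same size as that of IL22 but from few reads. The ratio of SM-164 to DMSO was 2.37, with an interval of 0.822 to 7.69 that includes 1. IFNG stayed below the expression minimum in every comparison.

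IL10, which lies on chromosome 1 from 206940948 to 206945839 on the minus strand (hg19), differed in the other direction. Its RPKM was 8.67 with DMSO (1316 reads), 8.42 with SM-164 (1080), 4.49 on CHO cells (1008) and 2.75 on CD30L+ CHO cells (612). Both co-culture libraries were below both libraries of the drug experiment, and the CD30L+ CHO library was the lowest. With CD30L the level was 0.612 of that on CHO cells (0.552 to 0.677), and 258 of 7661 tested genes had a lower ratio. Between SM-164 and DMSO the ratio was 0.971 (0.895 to 1.05), so a difference was not detectable beyond counting error. The log2 ratio of -0.04 turned to 0.12 with the median of genes of 3 to 9 kb set to 0.

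Reads also lay on the opposite strand of IL10, at an RPKM of 0.908 with DMSO, 0.569 with SM-164, 0.523 on CHO cells and 0.453 on CD30L+ CHO cells. They made up 6.33% to 14.2% of the reads on both strands. IL19, another IL-10 family gene, lies on that opposite strand, 26.4 kb away in the files' annotation, and its span in RefSeq (GRCh38.p14) overlaps IL10. IL19 itself was at an RPKM of 0.758, 0.617, 0.485 and 0.353 in the same order of libraries. All 3 features thus had their highest RPKM with DMSO and their lowest on CD30L+ CHO cells, but not every step exceeded counting error. For IL10 the ratio of SM-164 to DMSO was 0.971 (0.895 to 1.05). For its opposite-strand reads the ratio of CD30L+ CHO to CHO was 0.870 (0.660 to 1.15). Whether the opposite-strand reads belong to IL19 was not tested. MAPKAPK2, a kinase gene 33.3 kb from IL10, was at 2.12, 2.11, 2.65 and 2.98.

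IL21, on chromosome 4 from 123533783 to 123542211 on the minus strand (hg19), carried more reads on the opposite strand than on its own. On its own strand IL21 had 15 reads with DMSO (RPKM 0.0562), 29 with SM-164 (0.131), 18 on CHO cells (0.0465) and 97 on CD30L+ CHO cells (0.252). The CD30L+ CHO library was the highest, 5.43-fold above CHO (3.26 to 9.55), and SM-164 was 2.29-fold above DMSO (1.19 to 4.59). On the opposite strand IL21 had 54 reads with DMSO (RPKM 0.206), 63 with SM-164 (0.283), 96 on CHO cells (0.249) and 431 on CD30L+ CHO cells (1.12).

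The opposite-strand reads of IL21 were 4.52-fold higher with CD30L (3.62 to 5.70), a ratio whose interval overlaps that of the sense reads. Between SM-164 and DMSO their ratio was 1.38, with an interval of 0.945 to 2.02 that includes 1. Their share of the reads on both strands was 78.6% with DMSO, 68.3% with SM-164, 84.3% on CHO cells and 81.7% on CD30L+ CHO cells. For comparison, IL22 had 0% to 0.262% of its reads on the opposite strand. Of 598 antisense features tested on CD30L+ CHO against CHO cells, 6 were at least 2-fold higher, which is 1% of them, and 0.836% were lower by as much. The IL21 feature had a log2 ratio of 1.46, and it passed the expression minimum only through the CD30L+ CHO library, where it was high. In the other comparisons, 0.489% of antisense features were at least 2-fold higher and 0% lower with SM-164, and 10.9% higher and 1.32% lower on CHO cells against DMSO. In RefSeq, the long noncoding RNA gene IL21-AS1 overlaps IL21. It has no entry of its own in the files, and whether the opposite-strand reads belong to it was not tested.

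**Figure D2:**
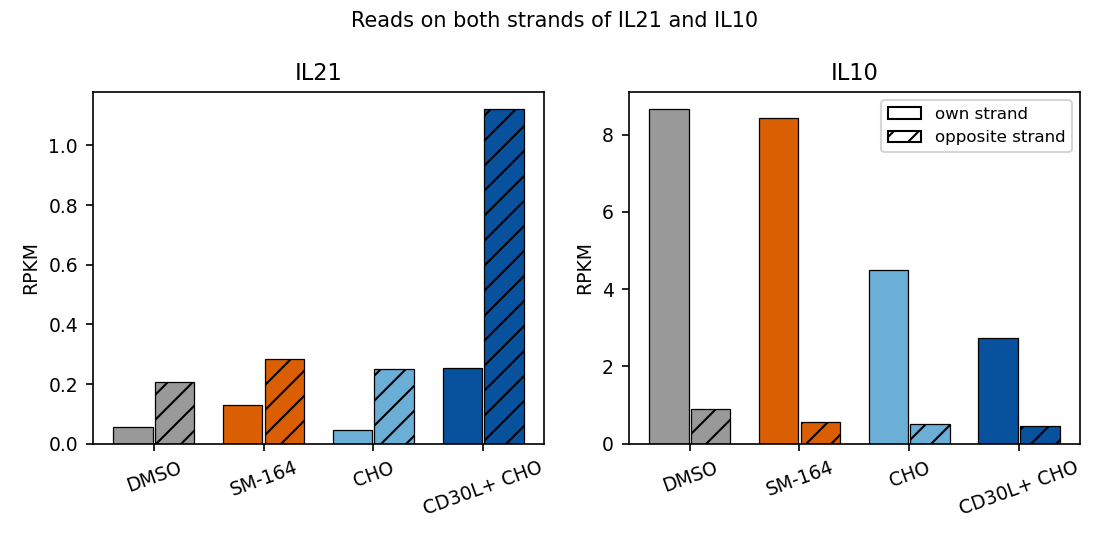
RPKM of IL21 (left) and IL10 (right) on the gene's own strand (plain bars) and on the opposite strand (hatched bars) in each library. For IL21 the opposite strand is higher in all 4 libraries and reaches 1.12 on CD30L+ CHO cells; for IL10 the own strand is higher in all 4 and is lowest, at 2.75, on CD30L+ CHO cells.

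IL17F and IL9 were at or near 0. IL17F, on chromosome 6 from 52101484 to 52109298 on the minus strand (hg19), had 1 read with DMSO, 0 with SM-164, 7 on CHO cells and 11 on CD30L+ CHO cells. The ratio of the last 2 was 1.58 with an interval of 0.561 to 4.82, too wide to show a difference. The 0 with SM-164 has an exact Poisson 95% upper limit of 0.0180 RPKM. IL17A, which lies 46.0 kb away and encodes the founding member of the IL-17 family, had 0 to 2 reads per library. The opposite strand of IL17F had 8 reads with DMSO and 1 in each other library. MCM3, a replication gene 19.5 kb away, was at an RPKM of 5.28, 4.95, 3.50 and 3.23. IL9, on chromosome 5 from 135227935 to 135231516 on the minus strand (hg19), had 0 reads on either strand in all 4 libraries. The exact Poisson 95% upper limits ran from an RPKM of 0.0224 on CHO cells to 0.0393 with SM-164.

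IL8 lies on chromosome 4 from 74606223 to 74609433 on the plus strand (hg19), and its promoter letters are printed above. It had 17 reads with DMSO (RPKM 0.171), 17 with SM-164 (0.202), 58 on CHO cells (0.394) and 574 on CD30L+ CHO cells (3.93). The CD30L+ CHO library stood apart from the other 3, and no opposite-strand read was counted in any library. With CD30L the ratio was 9.97 (7.60 to 13.3), and of 7661 tested genes BIRC3 alone, which encodes the IAP protein c-IAP2, had a higher log2 ratio (named with its value in view). The mean over both co-culture libraries was above the expression minimum because of the CD30L+ CHO library alone. With SM-164 the ratio was 1.18, and its interval of 0.568 to 2.47 includes 1. The level in the CHO library was 2.31-fold that with DMSO (1.32 to 4.23), below the expression minimum. Co-culture and experiment cannot be told apart in that ratio. CXCL6, the 1 other gene within 100 kb, had 0 reads in every library.

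IL32, on chromosome 16 from 3115313 to 3119668 on the plus strand (hg19), had the largest difference between the DMSO and CHO controls among the tested members. Its RPKM was 12.9 with DMSO (1743 reads), 10.1 with SM-164 (1149), 4.51 on CHO cells (901) and 5.77 on CD30L+ CHO cells (1145). Both co-culture libraries lay below both drug libraries. It was 1.28-fold higher with CD30L (1.17 to 1.4) and at 0.780 of the DMSO level with SM-164 (0.724 to 0.841). These ratios lay on opposite sides of 1, and the difference between them was not tested. Within 100 kb of IL32 lie 15 genes, of which 5 passed the expression minimum for SM-164 against DMSO with a median log2 ratio of -0.30, and IL32 itself was at -0.35. For CD30L, 2 neighbours passed it with a median of -0.65, while IL32 was at 0.34.

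**Figure D3:**
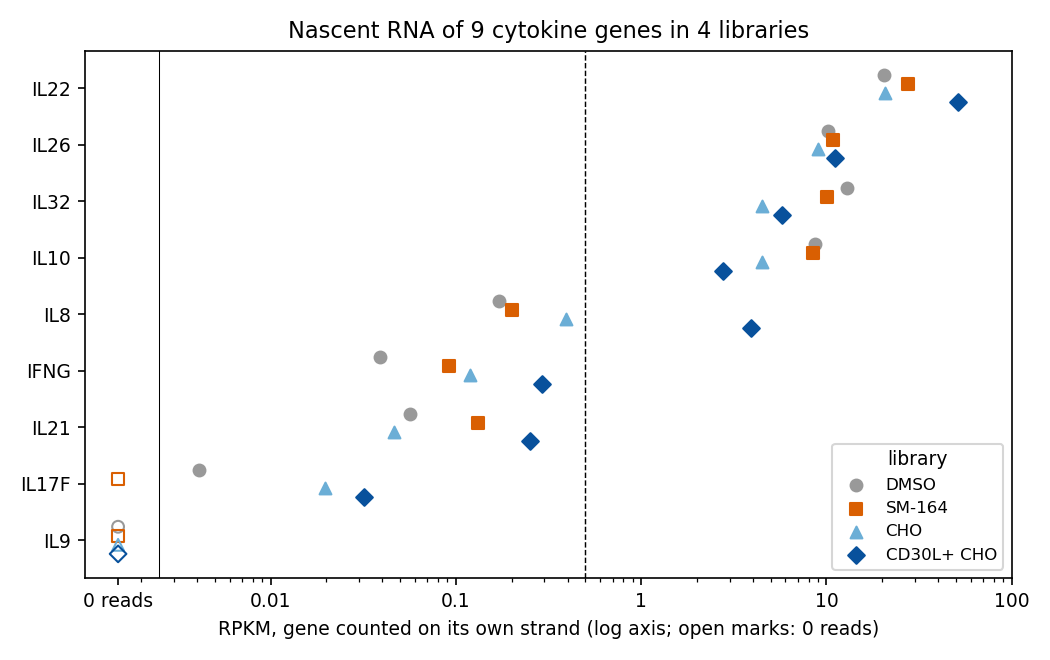
RPKM on a log axis of the 9 genes (rows) in the 4 libraries (marks), with 0 reads drawn as open marks at the left and the expression minimum of 0.5 as a dashed line. IL22, IL26, IL32 and IL10 lie right of the line in all 4 libraries, IL8 only on CD30L+ CHO cells, and IL9 has 0 reads throughout.

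Across members, the order of levels differed between libraries. After IL22 came IL32 (12.9), IL26 (10.1) and IL10 (8.67) with DMSO. With SM-164, IL26 (10.9) came before IL32 (10.1) and IL10 (8.42), and the exact Poisson 95% intervals of IL26 and IL32 just overlapped, at 10.6 to 11.2 and 9.49 to 10.7. On CHO cells IL26 (9.0) was followed by IL32 (4.51, interval 4.22 to 4.81) and IL10 (4.49, interval 4.22 to 4.78), which did not differ beyond counting error. On CD30L+ CHO cells the order was IL26 (11.2), IL32 (5.77), IL8 (3.93) and IL10 (2.75). Summed over the 9 genes, reads made up 0.0454% of the library with DMSO, 0.0499% with SM-164, 0.0373% on CHO cells and 0.0597% on CD30L+ CHO cells.

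The first comparison, SM-164 against DMSO, set the IAP antagonist beside its solvent. IL22 had the highest log2 ratio of the 4 tested members, 0.43, followed by IL26 (0.10), IL10 (-0.04) and IL32 (-0.35). The median over these members was 0.03, beside -0.04 over all 7881 tested genes. None of the 4 reached 2-fold in either direction, while 0.254% of all tested genes did, 0.19% higher and 0.0634% lower. Of the 5 members below the minimum, IL21 was the 1 whose interval excluded 1.

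The second comparison, CD30L+ CHO against CHO, set the ligand of CD30 beside contact with CHO cells without it. Of 5 tested members, IL8 (log2 ratio 2.70) and IL22 (1.29) were at least 2-fold higher, IL32 (0.34) and IL26 (0.30) were higher by less, and IL10 (-0.66) was lower. IL8 passed the expression minimum only through the CD30L+ CHO library, where it was high, and the members were chosen with earlier results known. The count and median of the members therefore describe this list only. Of all tested genes 1.71% were at 2-fold or more, 0.979% higher (75 genes) and 0.731% lower (56 genes). The median over the members was 0.34 and that over all tested genes -0.12. TMM scaling moved the median of all genes by 0.17 and the split to 112 higher and 33 lower genes, and with it the log2 ratios were 0.54 for IL32, 0.50 for IL26 and -0.47 for IL10. Of the 4 members below the minimum, IL21 and IFNG had intervals above 1, IL17F an interval that includes 1, and IL9 no read.

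**Figure D4:**
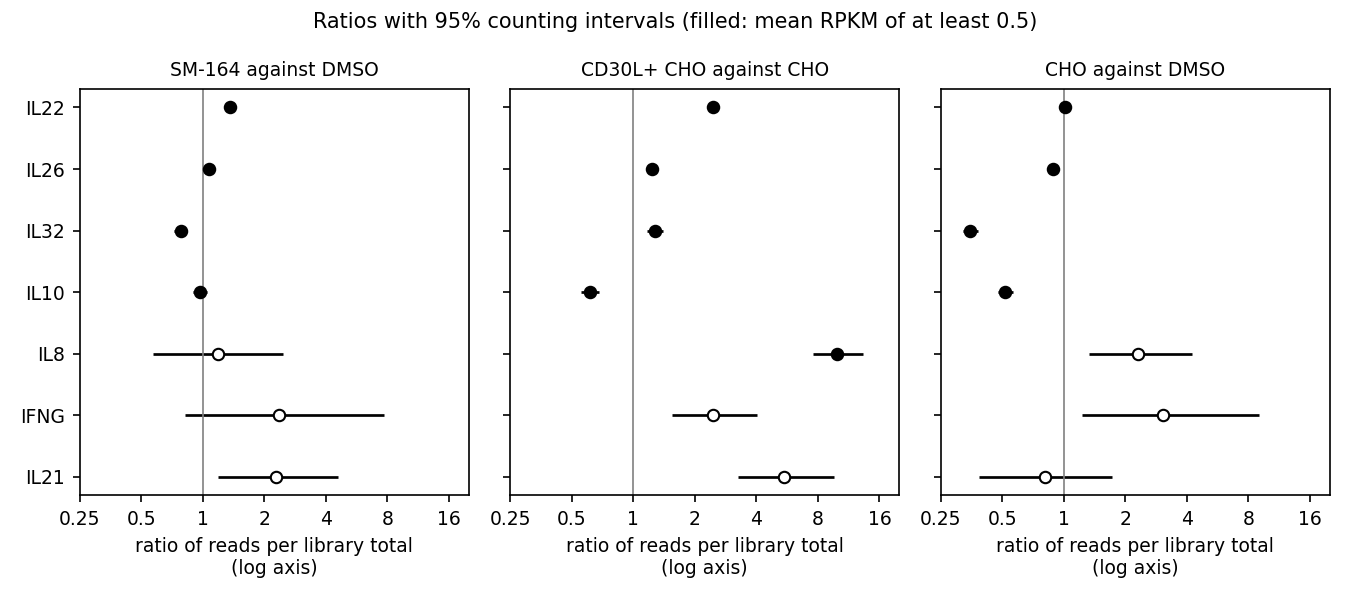
Ratios of reads per library total on a log axis for 7 members in the 3 comparisons, with exact 95% counting intervals as lines; filled points passed the expression minimum and open points did not. IL8 (9.97), IL21 (5.43), IL22 (2.46) and IFNG (2.46) lie farthest right on CD30L+ CHO against CHO cells, IL32 (1.28) and IL26 (1.24) closer to 1, and IL10 (0.612) lies left of 1.

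**Figure D5:**
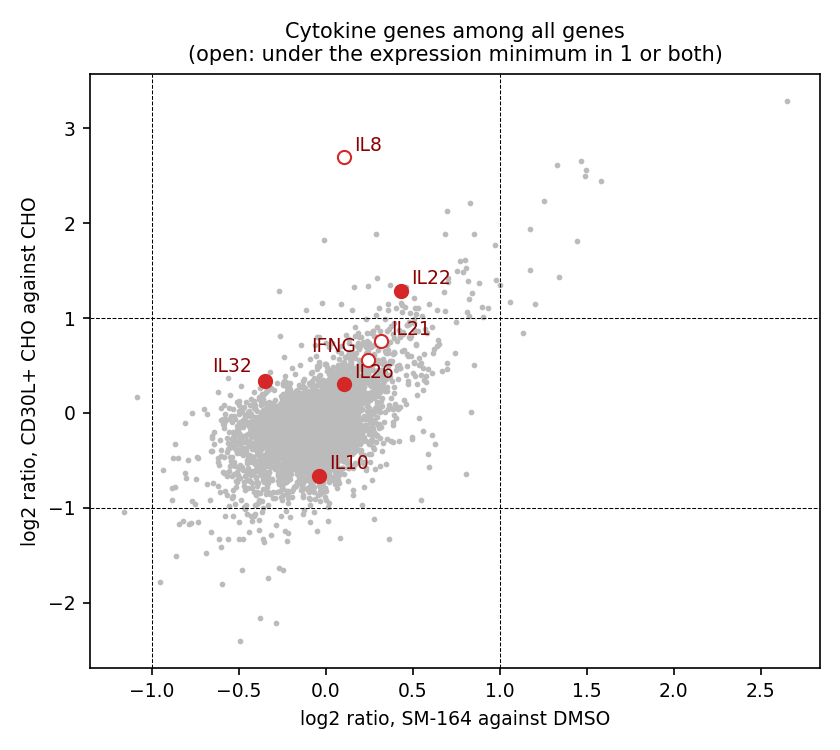
Log2 ratio of CD30L+ CHO against CHO (vertical) over SM-164 against DMSO (horizontal) for the 7210 genes tested in both comparisons (grey) and 7 members (red; open where under the expression minimum in either). IL8 sits at 2.70 on the vertical and 0.10 on the horizontal axis, apart from the other members, and dashed lines mark 2-fold.

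The third comparison set the control libraries of both experiments side by side, CHO against DMSO, in which co-culture and experiment cannot be told apart. IL32 was at 0.350 of its DMSO level (0.322 to 0.379), a log2 ratio of -1.47, and IL10 at 0.518 (0.477 to 0.563), a log2 ratio of -0.91. IL26 was at 0.889 (0.863 to 0.916), and IL22 at 1.02 (0.976 to 1.07), a log2 ratio of 0.03 that turned to -0.082 under TMM scaling. Of 4 tested members, IL32 was the 1 at least 2-fold lower, beside 4.52% of all 8081 tested genes (0.879% were higher and 5.4% either way), and under TMM scaling IL10 joined it at -1.02. Lower genes were frequent here: of 1308 tested genes with 3 to 9 kb of counted bases, the range of 8 of the 9 members, 110 were at least 2-fold lower, 11 were higher and the median was -0.17. With that median set to 0, the split over all genes was 157 higher and 258 lower, against 71 and 365. Of the 10 T cell and lymphoma markers, 6 were tested and 3 were at least 2-fold lower: the cytotoxic granule genes PRF1 (log2 ratio -1.28) and GZMB (-1.06) and the T cell receptor subunit gene CD3D (-1.03). The summed RPKM of the 10 was 49.9 with DMSO and 26.9 on CHO cells, and 5 tested neighbours of IL32 had a median of -0.88. Their part in the lower IL32 and IL10 values was not tested. Among members with few reads, IFNG was 3.04-fold higher (1.23 to 9.01), IL8 2.31-fold higher (1.32 to 4.23) and IL21 at 0.812 (0.386 to 1.73).

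Other cytokine genes were mostly below the expression minimum. Of 29 further cytokine genes, 10 to 13 had 0 reads in a library, among them IL2, IL3 and IL4 in all 4. On CD30L+ CHO against CHO cells, TNF, encoding tumour necrosis factor, was at an RPKM of 2.03 against 0.367 (5.49-fold, 4.01 to 7.66). It was the 1 of the 29 above the expression minimum there, and only through the library in which it was high. With SM-164, 2 were tested, TNF (1.3-fold, 0.905 to 1.87) and IL19 (0.813, 0.738 to 0.895). Neither reached 2-fold, which 0.254% of all tested genes did. Below the minimum, CSF2, which encodes the growth factor GM-CSF, had 22 reads on CD30L+ CHO cells against 4 on CHO cells (5.54-fold, 1.88 to 22.1). EBI3, a subunit of IL-27 and IL-35, had 50 against 15 reads (3.36-fold, 1.86 to 6.44), and IL1A 135 against 51 (2.67-fold, 1.92 to 3.76). IL12A, a subunit of IL-12, was lower, with 56 against 103 reads (0.548, 0.388 to 0.766). Of the genes in these and the following lists, those short of 2-fold or below the minimum were picked with their values in view.

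None of 19 further chemokine genes passed the minimum in any of the 3 comparisons. CXCL10, an interferon-induced chemokine, had 28 reads on CD30L+ CHO cells against 5 on CHO cells (5.64-fold, 2.15 to 18.7). CXCL1, CXCL2 and CXCL3, neutrophil chemokines like IL8, had 0 to 2 reads in each co-culture library. CCL5, a T cell chemokine, had 209 reads on CD30L+ CHO cells against 129 on CHO cells (1.63-fold, 1.3 to 2.05).

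Of 14 receptor genes for the members' products, 5 were tested for CD30L and 0 were at 2-fold, beside 1.71% of all tested genes. The median log2 ratio of these receptor genes was 0.21, beside -0.12 over all tested genes. IL21R, the receptor of IL-21, was the 1 of 3 tested for SM-164 at 2-fold, 2.33-fold higher (2.23 to 2.43), beside 0.19% of all tested genes higher by as much. With CD30L its log2 ratio was 0.84. IL10RA, the ligand-binding chain of the IL-10 receptor, was at an RPKM of 0.359 with DMSO and 0.412 with SM-164. On CHO cells it was at 0.894 and on CD30L+ CHO cells at 1.21. Its ratio of SM-164 to DMSO was 1.15, below the expression minimum and with an interval of 0.920 to 1.43 that includes 1. IL22RA1, the IL-22 receptor chain of epithelial cells, had 0 to 3 reads, and IL9R had 0.

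Of 16 transcription factor genes of T helper lineages, 9 were tested, and with CD30L the AP-1 factors BATF (4.01-fold, 3.83 to 4.20) and BATF3 (2.68-fold, 2.57 to 2.8) were at least 2-fold higher and 0 lower, beside 0.979% of all tested genes higher and 0.731% lower. With SM-164, 0 of 9 were at 2-fold, beside 0.254% of all tested genes. On CHO cells against DMSO BATF3 alone was, at 0.410 (0.392 to 0.429), beside 4.52% of all tested genes at 2-fold or more lower. AHR, a ligand-sensing receptor known to drive IL22, was at an RPKM of 3.48 with DMSO, 4.04 with SM-164, 6.25 on CHO cells and 9.09 on CD30L+ CHO cells. TBX21, which encodes the TH1 factor T-bet, had 1 or 2 reads in each library.

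Profiles over the 4 libraries were also compared, as the Euclidean distance between log2 values of RPKM + 0.25 centred on each gene's mean, for the 5 members tested with CD30L against 7860 genes. The nearest to IL22 were LIMK2 (distance 0.0958), CD69 (0.138) and CYLD (0.168). IL26 was nearest to FMNL2 (0.0241), PICALM (0.0264) and PRDX6 (0.0315). For IL8 the nearest were farther away: NFKBIZ (0.680), DRAM1 (0.852) and SLAMF7 (0.947). The profiles were centred but not scaled, so these distances also reflect the size of its CD30L ratio. IL10 was nearest to CDIPT (0.0801), SPN (0.0979) and C16orf42 (0.119), and IL32 to NEAT1 (0.151), HOXB7 (0.182) and CD74 (0.188). With 1 library per condition these distances describe the 4 libraries only.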

How the data were processed

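The build was hg19 and the tools were TopHat 1.4.1, Bowtie 0.12.8, bedtools 2.16.2 and CASAVA 1.8.2, per the submitters' processing notes (gene annotation: not given in the sources used here). Per the labels' protocols, strand-specific synthesis applied to some samples, without saying which. The authors deposited an estimated count per feature over exons and introns, of which 60.6% to 70.8% of non-zero values lay within 0.001 of a whole number. The authors deposited the signal per base, which is that count over the counted bases, and the RPKM, scaled by 1 library total per file, recovered from both columns. Sense and antisense features are separate and held 78.4% to 79.6% and 3.31% to 3.57% of the totals. Where a gene name occurred more than once, the entry with the largest number of counted bases was taken. Counts were rounded for folds, with Clopper-Pearson intervals, and for TMM. With 1 library per condition, no test of the conditions exists. The members, 4 gene lists and 6 marker lists were chosen with earlier results of these data known, and all 9 members are named whatever their values. From other lists, genes at 2-fold or more are named (at most 4 per list and comparison), and the text says where others were picked with their values in view. Alternatives were other pseudocounts, minimums, scalings and thresholds. The procedure was run on simulated counts that held planted folds and Poisson error alone. Differences between replicates and PCR duplicates were therefore not covered by it. Computations used R 4.3.3 with edgeR 4.0.16, and Python 3.11.15 with scipy 1.17.1, pandas 2.3.3, numpy 2.4.6 and matplotlib 3.10.9.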

Additional observations from a re-analysis of the deposited data

Results flagged for a closer look

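Reads on the strand opposite to each of the 9 members, outside the sense counts that the comparisons used, were screened for SM-164 and for CD30L. Those whose 95% counting interval lay above 1 were kept, which were IL21 with CD30L and IL22 with SM-164. For IL21, 431 such reads with CD30L stood against 96 without it, a ratio of 4.52 (95% counting interval 3.62 to 5.70). The opposite strand of IL22 had 10 reads with SM-164 and 2 with DMSO, a ratio of 5.92 with a wide interval of 1.26 to 55.5. Its RPKM there was 0.0726 and 0.0123, far below the expression minimum, and the 10 reads were 0.262% of those on both strands. It had 5 reads on CD30L+ CHO cells against 0 on CHO cells. For IL26 the opposite strand had 13 reads with SM-164 and 7 with DMSO, a ratio of 2.20 (0.815 to 6.51), an interval that includes 1. For IL10, whose antisense reads were 138 with DMSO and 73 with SM-164, the ratio was 0.626 (0.465 to 0.837).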

How the results depend on the processing

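IL8 and IL22 on CD30L+ CHO against CHO cells stayed at 2-fold or more under every pseudocount and scaling tried. TMM scaling moved other log2 ratios of this comparison to 0.50 for IL26, -0.47 for IL10 and 0.54 for IL32. In CHO against DMSO it moved IL22 to -0.082, IL26 to -0.27 and IL10 to -1.02, so that 2 members were at 2-fold. Centring the median gene at 0 put IL26 at 0.42 with CD30L and at -0.22 on CHO against DMSO. With the median of genes of 3 to 9 kb set to 0, an alternative chosen after seeing the data, SM-164 ratios were 0.60 for IL22, 0.12 for IL10 and -0.19 for IL32. CD30L ratios were then -0.45 for IL10 and 0.55 for IL32, and ratios of CHO against DMSO 0.20 for IL22 and -0.74 for IL10. A pseudocount of 1 left 11, 58 and 227 genes at 2-fold in the 3 comparisons, against 20, 131 and 436. A 1.5-fold threshold gave 149, 583 and 1438 genes, and with CD30L lower genes then outnumbered higher ones, 382 to 201. It also gave 3 members with CD30L, IL10 (lower) beside IL22 and IL8, and 2 on CHO against DMSO, IL10 and IL32. No paired analysis was possible because each condition has 1 library. Depth limits IFNG, IL21 and IL17F, which rest on at most 97 reads, and IL8 outside the CD30L+ CHO library.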
